A study of Mus musculus with 6 samples.

Results

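The genes examined here encode the enzymes that make serine and pass its carbon to folate: Phgdh, Psat1, Psph, Shmt1, Shmt2, Mthfd1, Mthfd2, Mthfd1l and Aldh1l2, together with Atf4, which encodes a transcription factor of the amino acid response. They were chosen by name and make up 10 of the 35905 genes with a matched transcript in the series. All 10 had 1 gene identifier each and passed the low-count filter. RNA was sequenced from a pair of lines of EO771, which derives from a mammary tumour of the mouse. The first is EO771-tdT-Parental_Ac6 (Parental for short), whose tag Ac6 the labels do not explain, and the other EO771-tdT-LM2 (LM2 for short). Both carry the genotype label WT, both were grown for 48 h in RPMI medium with fetal bovine serum, and each gave 3 libraries. The labels do not say how LM2 was derived, whether a line is 1 clone, or whether the 3 libraries stem from separate cultures. The p-values therefore cover only the scatter among these libraries, which may be technical.

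Serine is made from a glycolytic intermediate in a short chain of reactions run by Phgdh, Psat1 and Psph. Serine hydroxymethyltransferase then turns serine into glycine and loads the released carbon onto tetrahydrofolate, with Shmt1 acting mainly in the cytosol and Shmt2 in mitochondria. The mitochondrial enzymes Mthfd2 and Mthfd1l oxidise that carbon and release it as formate, Aldh1l2 burns it to CO2 while making NADPH, and cytosolic Mthfd1 recaptures formate for purine and thymidylate synthesis. Many tumour cells run this loop through mitochondria, and ATF4 protein activates many of its genes.

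Libraries held 33922699 to 45849019 estimated counts. Of the epithelial markers Krt8 was abundant in both lines, at 419.7 CPM (counts scaled to library size) in Parental and 568 in LM2, while 3 of 5 markers (Krt18, Krt19 and Cdh1) lay below 1 CPM in both. The fifth, Epcam, rose from 0.154 ± 0.0503 to 14.97 ± 0.360 CPM (SD, n = 3, edgeR adjusted p = 4.94e-19). Mesenchymal markers summed to 4808 to 4935 CPM in Parental and 6196 to 6304 CPM in LM2. In that list Vim (3900 to 4776 CPM) and Col1a1 (log2 fold change 1.01) rose while S100a4 fell, from 329 to 158 CPM. The remaining 2 of its 5 markers, Fn1 and Cdh2, lay below 1 CPM in both lines. Leukocyte markers summed to 1.93 to 2.18 CPM in Parental and 5.67 to 6.76 CPM in LM2, with Ptprc below 1 CPM in both lines and Cd79a higher in LM2 (0.113 and 3.21 CPM). Endothelial markers summed to 3.47 to 4.33 and 4.24 to 4.83 CPM. Their part in the results below was not tested.

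In LM2 cells the mitochondrial folate enzymes Shmt2 and Mthfd1l were 1.51-fold and 1.47-fold lower, the cytosolic enzyme Mthfd1 was 1.28-fold lower, and Atf4 and Aldh1l2 fell by smaller amounts. The serine synthesis genes Phgdh, Psat1 and Psph, the cytosolic Shmt1 and the mitochondrial Mthfd2 did not pass the test, and each differed by less than 4% in CPM. Of the 10 genes 5 were called lower in LM2 and 0 higher by edgeR's quasi-likelihood test at a Benjamini-Hochberg adjusted p below 0.05 over 13247 tested genes. At that threshold 62.4% of all tested genes were called, 31.1% lower and 31.4% higher. At an unadjusted p below 0.05, 6 members were lower and 0 higher, against 32.7% and 32.6% of all tested genes. DESeq2 also called 5 lower and 0 higher. The median log2 fold change (LM2 minus Parental) was -0.08 for the 10 genes, against 0.00 over all tested genes. As these are bulk RNA samples on a relative (TMM-scaled) measure, fewer cells with a transcript and less of it per cell cannot be told apart.

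**Figure D1:**
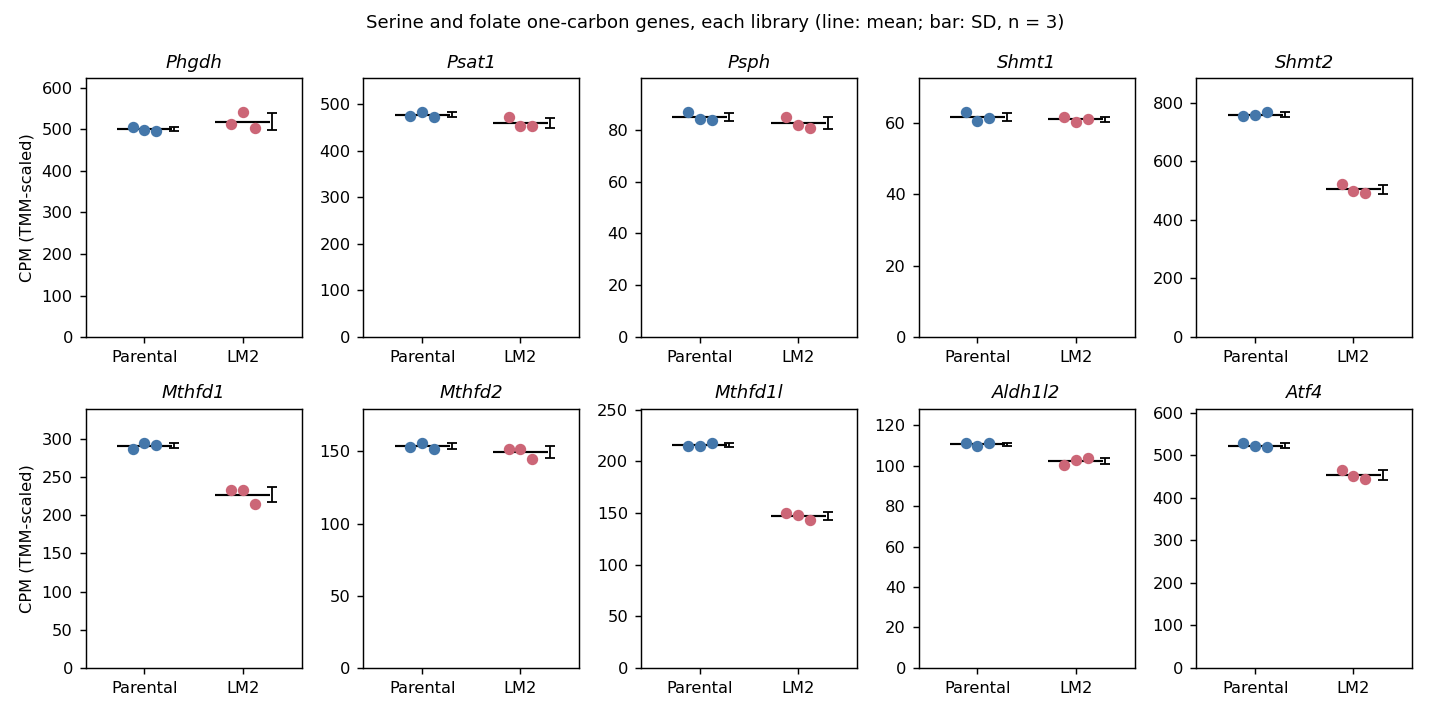
CPM of each of the 10 genes (vertical axes from 0, TMM-scaled CPM) in the 3 Parental and 3 LM2 libraries, with the mean as a line and the SD as a bar. Shmt2, Mthfd1l, Mthfd1 and Atf4 stood clearly lower in LM2, with Shmt2 at 492 to 521 CPM against 753 to 767 CPM.

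Promoter windows are shown for members that fell in LM2 and for members that did not pass, so that their sequences can be set side by side. The windows run from 250 bases before to 50 bases after the annotated start, on RefSeq build GRCm38.p6, and 9 of the 10 genes had one. Aldh1l2 had none. Shmt2 (chr10:127522395-127522694, minus strand) and Mthfd1l (chr10:3972825-3973124, plus strand) fell in LM2, and Phgdh (chr3:98339920-98340219, minus strand) and Mthfd2 (chr6:83317555-83317854, minus strand) did not pass. Capitals mark CCAAT boxes (CCAAT or ATTGG) and GC boxes (GGGCGG or CCGCCC).
Shmt2: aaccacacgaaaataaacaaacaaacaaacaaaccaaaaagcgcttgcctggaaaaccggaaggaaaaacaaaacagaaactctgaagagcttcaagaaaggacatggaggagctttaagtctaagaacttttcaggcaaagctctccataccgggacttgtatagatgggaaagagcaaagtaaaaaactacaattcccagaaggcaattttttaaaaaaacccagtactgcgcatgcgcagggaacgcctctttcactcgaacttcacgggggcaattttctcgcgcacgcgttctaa
Mthfd1l: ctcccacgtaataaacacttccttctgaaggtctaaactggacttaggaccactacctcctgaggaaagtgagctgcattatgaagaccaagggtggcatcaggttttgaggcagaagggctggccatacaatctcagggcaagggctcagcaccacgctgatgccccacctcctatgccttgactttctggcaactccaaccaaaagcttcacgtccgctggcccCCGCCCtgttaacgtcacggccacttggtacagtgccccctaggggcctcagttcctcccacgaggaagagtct
Phgdh: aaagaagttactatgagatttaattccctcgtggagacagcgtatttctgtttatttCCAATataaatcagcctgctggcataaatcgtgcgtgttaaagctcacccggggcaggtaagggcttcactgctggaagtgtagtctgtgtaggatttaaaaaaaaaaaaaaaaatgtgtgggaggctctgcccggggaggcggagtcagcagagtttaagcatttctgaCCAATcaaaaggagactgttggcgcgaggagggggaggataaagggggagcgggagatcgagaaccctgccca
Mthfd2: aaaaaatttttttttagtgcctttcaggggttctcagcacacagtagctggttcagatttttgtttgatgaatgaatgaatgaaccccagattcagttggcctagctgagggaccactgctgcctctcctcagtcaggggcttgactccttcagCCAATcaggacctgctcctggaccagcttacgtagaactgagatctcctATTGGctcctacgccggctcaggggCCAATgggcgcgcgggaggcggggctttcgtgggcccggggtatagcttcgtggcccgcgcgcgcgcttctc
The Phgdh window held 2 CCAAT boxes and the Mthfd2 window 3, while the windows of Shmt2 and Mthfd1l held none. Mthfd1l had 1 GC box. Over all 10 windows (Psat1 has a pair of starts), 7 held a CCAAT box and 5 a GC box, against 37.4% and 35.7% of the 32851 windows in the table. These motifs were added after 3 others, TGATGNAAN (the C/EBP-ATF composite element), TGACGTCA (the cyclic AMP response element) and CACGTG (the E-box), matched in 0 of the 10 windows on either strand. Those occur in 3.95%, 1.79% and 7.15% of all windows. A CCAAT box was also present in Mthfd1 and Atf4, which fell in LM2.

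None of the 3 serine synthesis genes passed the test. Phgdh, whose product takes the first committed step, stood at 506, 498 and 497 CPM in Parental and at 512, 541 and 503 CPM in LM2. The ranges overlapped in CPM and LM2 replicate 2 was the highest. The log2 fold change was 0.05, with a 95% interval from -0.00 to 0.11 and an edgeR adjusted p of 0.0961. Without LM2 replicate 3 Phgdh was called higher, at a log2 fold change of 0.07 (edgeR adjusted p = 0.0248). In TPM, which corrects for transcript length, its LM2 libraries (449.9, 483.8 and 459.9) all lay above the Parental ones (440.9, 432.2 and 445.6). It did not pass there either (limma on log2(TPM + 1), adjusted p = 0.0687). Other genes hold 56.3% of the 31-base words of Phgdh transcripts, mostly Gm7901, which was near 0 (0.206 CPM in Parental, 0.180 in LM2).

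Psat1, the aminotransferase of the middle step, read 475, 483 and 473 CPM in Parental and 473, 453 and 453 CPM in LM2. Its LM2 libraries all lay below the Parental ones, the highest of them by less than 1 CPM. The log2 fold change of -0.05 (interval -0.10 to -0.00) had an edgeR adjusted p of 0.0666 (0.043 unadjusted). Without LM2 replicate 1 Psat1 was called lower, at -0.08 (edgeR adjusted p = 0.00514). Psph, the phosphatase of the last step, read 86.8, 84.3 and 83.8 CPM in Parental and 84.95, 81.95 and 80.6 CPM in LM2, with overlapping libraries (log2 fold change -0.04, interval -0.11 to 0.02, edgeR adjusted p = 0.249).

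Serine hydroxymethyltransferase split by compartment. Shmt2, the mitochondrial enzyme, read 753, 756 and 767 CPM in Parental and 521, 498 and 492 CPM in LM2. Every LM2 library was more than 200 CPM below every Parental library. The log2 fold change was -0.59 ± 0.03 (SE), the largest of the 10 genes in size, with an edgeR adjusted p of 8.77e-15. Shmt1, the cytosolic enzyme, read 63.0, 60.5 and 61.4 CPM in Parental and 61.5, 60.2 and 61.2 CPM in LM2. Those ranges overlapped (log2 fold change -0.02, interval -0.08 to 0.05, edgeR adjusted p = 0.694).

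The sign of the Shmt1 difference depended on how length was treated. In TPM, a unit that corrects for transcript length, Shmt1 stood at 39.2, 36.6 and 43.6 in Parental and at 43.2, 43.5 and 45.8 in LM2, and the authors' deposited table gives it a log2 fold change of 0.13. Its full-length coding transcript Shmt1-201 held 86.1%, 88.5% and 70.3% of the gene's TPM in Parental and 73.9%, 70.7% and 70.3% in LM2. The short intron-retaining transcript Shmt1-205 held 2.37% to 7.25% in Parental and 8.37% to 22.2% in LM2. Shmt1 did not pass in either unit.

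Among the enzymes that handle the folate-bound carbon, Mthfd1l, the mitochondrial formate-releasing synthetase, read 215, 215 and 218 CPM in Parental and 150.1, 148 and 143 CPM in LM2. The lines were far apart (log2 fold change -0.55 ± 0.03 SE, edgeR adjusted p = 4.06e-14). Mthfd2, the mitochondrial dehydrogenase one step before it, read 153, 156 and 152 CPM in Parental and 152, 152 and 145 CPM in LM2. Its highest LM2 library lay just under the lowest Parental one, and it did not pass (log2 fold change -0.04, interval -0.10 to 0.02, edgeR adjusted p = 0.194).

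Mthfd1, the cytosolic enzyme with 3 activities, read 287, 295 and 292 CPM in Parental and 233, 233 and 215 CPM in LM2. All LM2 libraries were lower, replicate 3 the most (log2 fold change -0.36 ± 0.03 SE, edgeR adjusted p = 8.75e-10). Aldh1l2, the mitochondrial NADPH-producing dehydrogenase, read 111, 109.8 and 111 CPM in Parental and 101, 103 and 104 CPM in LM2. The groups did not overlap, and the fall was small, 1.08-fold (log2 fold change -0.11 ± 0.03 SE, edgeR adjusted p = 0.00132). Other genes hold 14.7% of its 31-base words, and 13.5% occur in D10Wsu102e, a gene of the same chromosome. D10Wsu102e had 872 CPM in Parental and 782 in LM2, but 10.35 and 9.45 TPM once corrected for length.

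Atf4 RNA read 529, 521 and 518 CPM in Parental and 466, 450.2 and 444 CPM in LM2. The groups were apart, with a log2 fold change of -0.21 ± 0.02 (SE) and an edgeR adjusted p of 1.79e-07. ATF4 protein is set largely by translation through upstream reading frames, and protein was not measured. In CPM the LM2 libraries lay below the Parental libraries for 7 of the 10 genes, above for 0 and across them for 3. Over all tested genes the lines did not overlap in CPM for 67.0%, with LM2 below for 33.6% and above for 33.4%. The member counts depend on the unit. In TPM Psat1 overlapped (292 to 299.1 in Parental, 286.3 to 293.5 in LM2), as did Mthfd2 (127 to 129.2 and 121.9 to 129.2). Phgdh lay above in LM2 in TPM (432.2 to 445.6 and 449.9 to 483.8).

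On the per-length scale, which allows genes to be compared, Shmt2 led in Parental at 568 ± 7.31 TPM (SD, n = 3). Atf4 followed at 503 ± 6.53, then Phgdh at 439.6 ± 6.82 and Psat1 at 295 ± 3.87 TPM. Mthfd1 (143 ± 1.89), Psph (134 ± 6.20) and Mthfd2 (128 ± 1.16 TPM) formed a middle group, in which the libraries of Psph and Mthfd2 overlapped. The Psph value includes a short intron-retaining transcript, and its coding transcript Psph-201 alone stood at 70.6 TPM in Parental and 70.4 in LM2. Mthfd1l stood at 91.8 ± 0.352, Shmt1 at 39.8 ± 3.51 and Aldh1l2 at 32.5 ± 0.687 TPM. In LM2 the order at the top was another: Phgdh led at 464.5 ± 17.4 TPM, overlapping Atf4 at 445.5 ± 8.04, and Shmt2 came next at 386 ± 7.91. Mthfd1, at 114 ± 4.89 TPM, stood below Psph (134 ± 11.6) and Mthfd2 (126 ± 3.64). By mean TPM over all libraries Shmt2 ranked 310, Atf4 312, Phgdh 326 and Psat1 500 among the 13247 tested genes, and Aldh1l2 ranked 5055.

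**Figure D2:**
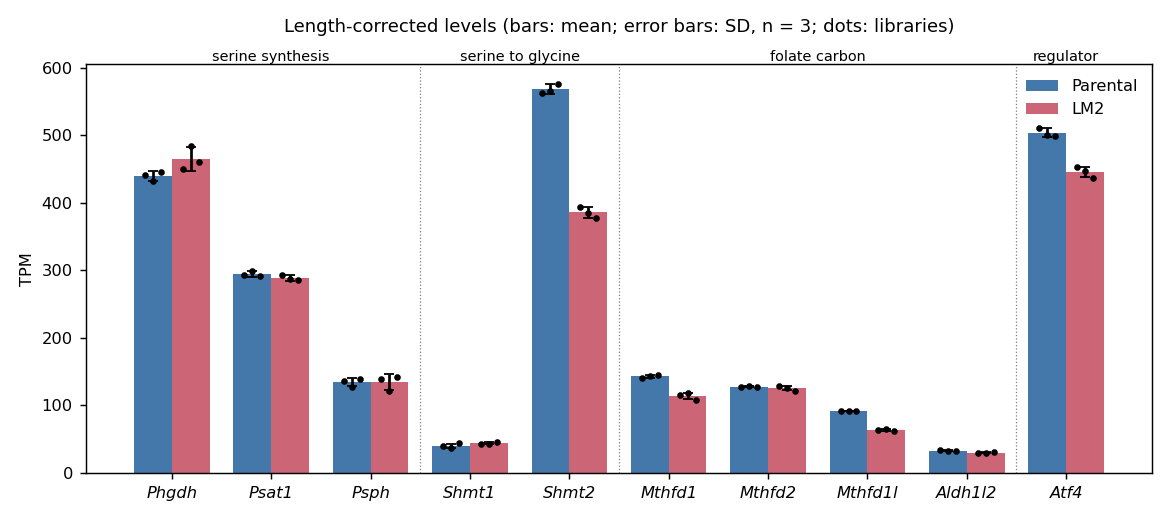
TPM of the 10 genes in Parental and LM2 (bars are means, error bars SD over 3 libraries, dots single libraries), grouped by role. Shmt2 was the highest bar in Parental at 568 TPM and lay below Phgdh in LM2, at 386 against 464.5 TPM.

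Ratios between steps were compared as TPM. There were 0.784, 0.765 and 0.774 Phgdh transcripts for each Shmt2 transcript in the Parental libraries (ratio of TPM) and 1.14, 1.26 and 1.22 in the LM2 libraries. The Shmt2 to Shmt1 ratio was 14.4, 15.4 and 13.2 in Parental and 9.11, 8.86 and 8.25 in LM2. The Mthfd2 to Mthfd1l ratio was 1.39, 1.41 and 1.38 in Parental and 2.01, 1.96 and 1.97 in LM2. These 3 ratios did not overlap between the lines, and each holds Shmt2 or Mthfd1l, whose own libraries were already apart. The Mthfd2 to Aldh1l2 ratio overlapped, from 3.84 to 4.06 in Parental and from 4.01 to 4.36 in LM2. The mitochondrial enzymes Shmt2, Mthfd2, Mthfd1l and Aldh1l2 summed to 820 ± 6.96 TPM in Parental and 605 ± 12.3 TPM in LM2, and the cytosolic Shmt1 and Mthfd1 to 183 ± 4.41 and 158 ± 3.59 TPM. The mitochondrial share of their sum was 81.5% to 81.9% in Parental and 78.9% to 79.6% in LM2. The serine synthesis genes summed to 869 ± 9.22 and 888 ± 4.73 TPM. These sums and ratios carry no test.

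Most members were read from 1 main transcript, the same one in both lines. On average Phgdh-201 held 98.6% of its gene's TPM in Parental and 98.8% in LM2, and Psat1-201 96.3% and 96.7%. Shmt2-201 held 82.4% to 84.0% in Parental and 83.9% to 85.6% in LM2, and its mean level was 473 TPM in Parental and 327 TPM in LM2. A second coding transcript, Shmt2-206, held 8.33% ± 0.428 in Parental and 6.51% ± 0.523 in LM2 (SD, n = 3). Mthfd1l-202 held 91.3% to 92.3% in Parental and 93.4% to 95.5% in LM2. Mthfd2-206, a transcript marked for nonsense-mediated decay, held 14.1% to 15.0% in Parental but 20.7%, 7.84% and 8.33% in the LM2 libraries. For Psph a short intron-retaining transcript of 398 bases, Psph-206, held 40.5% of TPM in Parental and 43.7% in LM2, so its TPM rests in large part on reads assigned to that fragment. These shares rest on how kallisto divides reads between transcripts that share sequence, and they were not tested.

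The 10 genes lie on 8 chromosomes, 3 of them on chromosome 10. Those 3 are Shmt2, Mthfd1l and Aldh1l2, all mitochondrial enzymes and all called lower. Chromosome 10 had the lowest median log2 fold change of the 20 chromosomes compared, -0.33 over 662 tested genes, of which 62.8% were called lower and 10.7% higher. The median was -0.32, -0.32 and -0.31 in the 3 LM2 libraries, each against the Parental mean. Shmt2 was 0.26 and Mthfd1l 0.23 log2 units below that median, and Aldh1l2 was 0.22 above it. Of the tested genes of the chromosome 20.7% fell further than Shmt2 and 72.5% further than Aldh1l2.

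Values near each gene were set beside these. The 40 genes nearest Shmt2 (20 on each side) had a median of -0.37, the 21 nearest Mthfd1l, which is close to the chromosome's end, -0.33, and the 40 nearest Aldh1l2 -0.39. Mthfd1 lies on chromosome 12, with a median of -0.19, and its 40 neighbours had a median of -0.07, so it stood 0.29 below them. Mthfd2 lies on chromosome 6, whose median was -0.18, but its neighbours had a median of 0.17. Atf4 lies on chromosome 15, with a median of 0.02, and its neighbours stood at 0.03. Phgdh (chromosome 3), Psat1 (19), Psph (5) and Shmt1 (11) lie on chromosomes with medians of 0.03, 0.07, 0.00 and -0.01. How far the changes of members and of their chromosomes share a source was not tested.

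**Figure D3:**
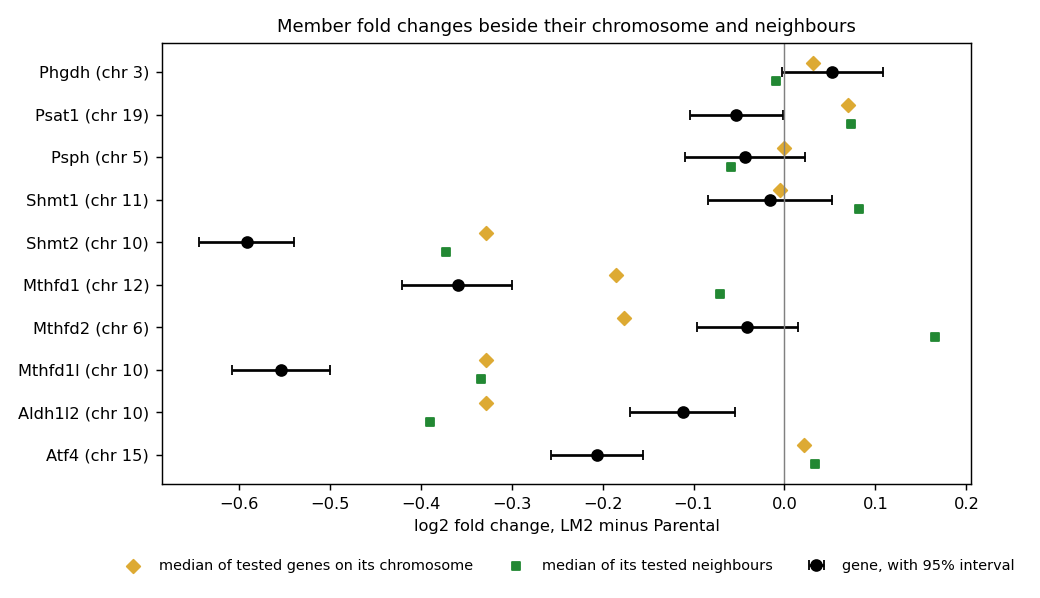
Log2 fold change (LM2 minus Parental) of each of the 10 genes with its 95% interval (circles), the median of tested genes on its chromosome (diamonds) and of its tested neighbours (squares). Shmt2 at -0.59 and Mthfd1l at -0.55 lie left of the chromosome 10 median of -0.33, and Aldh1l2 at -0.11 lies right of it.

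**Figure D4:**
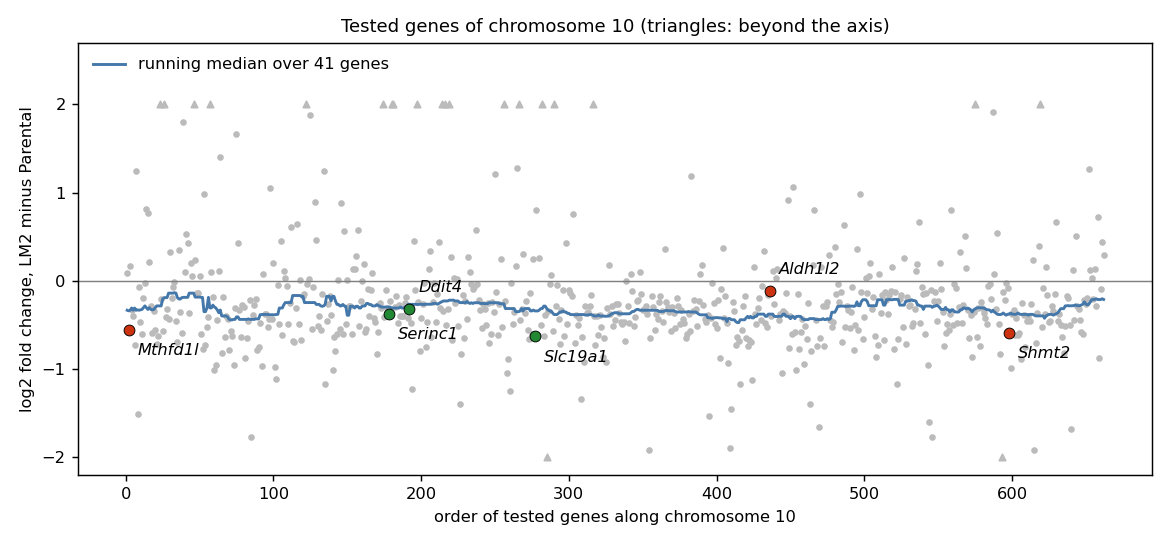
Log2 fold change of the 662 tested genes of chromosome 10 in their order along the chromosome (grey), with a running median over 41 genes (line) and triangles for genes beyond the axis. Members are red and genes of the related lists green, without Ddit3. The line stays below 0 along the chromosome, and Mthfd1l and Shmt2 lie near its opposite ends.

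Other genes of the folate cycle and of folate transport moved mostly down. Of 18 listed genes 14 were tested, 9 were called lower, 2 higher and 3 did not pass, with a median log2 fold change of -0.18. The share called lower over all genes was 31.1%. Slc19a1, the reduced folate carrier of the cell surface, fell 1.55-fold, from 191.5, 184 and 193 CPM in Parental to 127.5, 123 and 117 CPM in LM2 (log2 fold change -0.63 ± 0.03 SE, edgeR adjusted p = 3.03e-13). It also lies on chromosome 10. Slc25a32, the mitochondrial folate carrier, fell 1.21-fold from 68.9 ± 2.76 to 57.0 ± 1.88 CPM (SD, n = 3). Mtfmt, the mitochondrial methionyl-tRNA formyltransferase, did not pass, at 17.1 and 16.5 CPM.

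Paralogs of the members were also read. Mthfd2l, a paralog of Mthfd2, did not pass, with 14.9 ± 0.259 CPM (SD, n = 3) in Parental and 14.7 ± 0.454 in LM2 (edgeR adjusted p = 0.762). Aldh1l1, the cytosolic paralog of Aldh1l2, had 1 estimated count over the 3 Parental libraries and 7 over the 3 LM2 libraries and was not tested.

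The glycine cleavage system, the mitochondrial complex that breaks glycine down to load folate, had 4 tested genes, of which 1 fell and 3 did not pass. Gcsh, its lipoyl carrier protein, fell 1.51-fold from 181 ± 6.36 to 119.6 ± 7.20 CPM, on chromosome 8 with a median of -0.31. Dld, shared with other dehydrogenase complexes, was at 206 and 205 CPM and Amt at 1.04 and 1.21 CPM. In the methionine cycle and transsulfuration list 3 of 10 tested genes rose, 2 fell and 5 did not pass, with a median of 0.03. Over all tested genes 31.4% were called higher and 31.1% lower. Mat2a, which makes S-adenosylmethionine, fell 1.21-fold from 337 to 279 CPM, on chromosome 6 with a median of -0.18. Ahcy, which clears the used methyl donor, fell 1.10-fold, and other genes hold 71.4% of its 31-base words. Mtrr, which reactivates methionine synthase, rose 1.18-fold from 45.0 to 53.2 CPM, and Ahcyl1, an Ahcy relative, 1.12-fold. Methionine synthase Mtr (70.8 and 73.8 CPM) and Mat2b (83.3 and 83.6 CPM) did not pass.

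Genes that carry serine and glycine or use serine as a building block moved mostly up. Of 18 tested genes 11 rose, 5 fell and 2 did not pass, with a median of 0.22, beside 31.4% of all tested genes called higher. Slc6a9, the glycine transporter, rose 1.74-fold, from 65.4, 64.5 and 66.8 CPM in Parental to 112, 115 and 115 CPM in LM2 (log2 fold change 0.80 ± 0.03 SE, edgeR adjusted p = 1.12e-15). Other genes hold 28.4% of its words. The serine incorporator gene Serinc2 rose 1.72-fold from 5.20 to 8.96 CPM and serine racemase Srr 1.40-fold from 14.3 to 20.1 CPM. For Srr 28.1% of the words occur in other genes, mostly Tsr1. Serinc1, a relative of Serinc2, fell 1.30-fold from 182 to 140.1 CPM. Slc6a9 and Serinc2 lie on chromosome 4, which had the highest median of the 20 chromosomes, 0.39, and where 73.6% of tested genes were called higher, and Serinc1 on chromosome 10. Slc38a1, a neutral amino acid transporter, at 378 and 388 CPM, and Ptdss1, a phosphatidylserine synthase, at 64.6 and 65.3 CPM, did not pass.

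Targets of ATF4 outside the pathway were called in both directions, as were genes at large. Of 20 tested targets 8 rose, 8 fell and 4 did not pass, with a median of -0.01, beside 31.4% of all tested genes called higher and 31.1% lower. Atf3, a stress-induced transcription factor, rose 3.26-fold from 5.08 ± 0.125 to 16.6 ± 1.29 CPM, Nupr1 1.84-fold from 10.9 to 20.1 CPM and Sesn2, an inhibitor of mTORC1 signalling on chromosome 4, 1.67-fold from 47.9 to 80.2 CPM. Gars, glycyl-tRNA synthetase, fell 1.51-fold from 412 ± 4.79 to 273 ± 3.45 CPM, on chromosome 6 with a median of -0.18. The arginine transporter Slc7a1 (458 and 457 CPM) and Cebpb (247 and 244 CPM) did not pass. Ddit3 was left out of these counts because its symbol matched 2 gene identifiers. The abundant one rose from 6.25 to 9.09 CPM, on chromosome 10.

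Genes around eIF2alpha, whose phosphorylation raises ATF4 translation, numbered 7 among the tested genes. Of these 2 rose, 3 fell and 2 did not pass, near the 31.4% and 31.1% of all tested genes. Eif2ak2, an interferon-inducible kinase also known as PKR, rose 1.42-fold from 45.6 to 64.75 CPM, and Ppp1r15a, which directs dephosphorylation, 1.32-fold from 39.8 to 52.55 CPM. The heme-regulated kinase Eif2ak1 fell 1.16-fold. Eif2s1, eIF2alpha itself, fell 1.14-fold (log2 fold change -0.19), on chromosome 12 with a median of -0.19. Eif2ak4, the kinase GCN2 that senses uncharged tRNA, was at 43.1 and 42.4 CPM, and Eif2ak3, the kinase PERK, at 35.9 and 36.1 CPM, and neither passed. Counting members and list genes together, 6 tested genes lay on chromosome 10 (Shmt2, Mthfd1l, Aldh1l2, Slc19a1, Serinc1 and Ddit4) and 6 were called lower. Of all tested genes on that chromosome 62.8% were called lower. Ddit3, outside the count, lies there too and was called higher (log2 fold change 0.54, edgeR adjusted p = 1.12e-05).

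**Figure D5:**
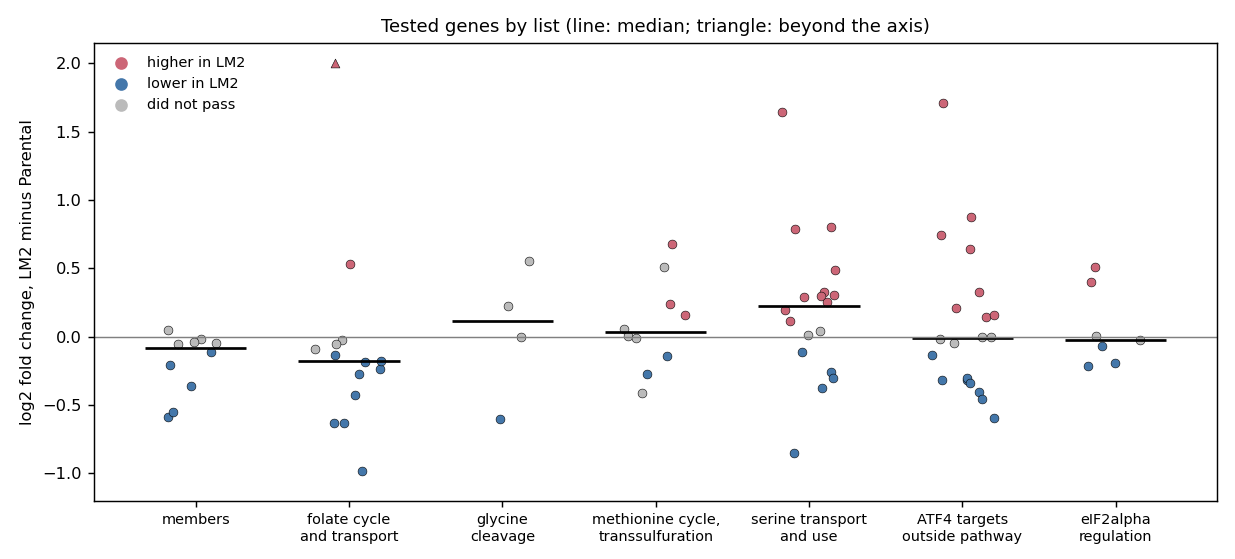
Log2 fold change (LM2 minus Parental) of the tested genes of each list, red for called higher, blue for called lower and grey for not passed, with the median as a line and one gene beyond the axis (Folr1) as a triangle. The folate list has a median of -0.18 and the serine transport and use list one of 0.22.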

How the data were processed

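For each library the authors deposited the estimated counts and TPM of 117486 transcripts, beside their lengths and effective lengths. The submitters' processing notes list kallisto 0.46.2, edgeR 3.32.1, FastQC, MultiQC and build GRCm39. No source used here gives a strand setting or transcript set, and overlapping and antisense genes may therefore share reads. The authors also deposited log2 fold changes for 11004 gene symbols, whose base and direction are not written there. Of 10544 matched to tested genes, 93.0% had the sign of the LM2 minus Parental values computed here, with a median absolute difference of 0.024.

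Transcripts were matched to genes by identifier with GENCODE M21 (116408 of 117486, 99.1%). The others held 0.426% to 0.448% of a library's counts and were left out. As that annotation is on another build, only names, chromosomes and gene order were taken from it. Per gene, the estimated counts were added up, rounded, filtered with filterByExpr, scaled by TMM and tested with edgeR 4.0.16 in R 4.3.3 (robust quasi-likelihood fit, no covariate, LM2 minus Parental). The SE is the fold change over the root of its F statistic. TPM were summed per gene and tested only in the limma settings. DESeq2 1.42.0 and limma 3.58.1 served as alternatives. The fits were first tested on simulated counts. There edgeR recovered 58% of 50 genes changed 1.2-fold and 78% of 50 changed 1.5-fold, with 4.85% of its calls false. Far fewer genes were changed there than were called in the data, so the scaling was not tested in such a setting. Named genes outside the 10 were, per list, up to 4 called genes with the largest changes among those reaching 5 CPM, showing both directions where present, up to 2 abundant ones that did not pass, and the paralogs Mthfd2l and Aldh1l1. Some genes this rule picks are not reported here. The planned comparison of protein sequences was not made. The genes, lists and tests were chosen with earlier results of these data known.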

Additional observations from a re-analysis of the deposited data

How the results depend on the processing

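The comparison was repeated in 15 other settings: DESeq2, other scalings, other low-count filters, an effective length offset, limma on log2(TPM + 1) and log2(TPM + 0.1), a replicate block, and leaving out each of the 6 libraries. Shmt2 (log2 fold change -0.62 to -0.56), Mthfd1l (-0.58 to -0.53), Mthfd1 (-0.38 to -0.32), Atf4 (-0.23 to -0.18) and Aldh1l2 (-0.16 to -0.11) were called lower in all 15. Psph and Mthfd2 were called in 0 of them. Shmt1 turned positive with the effective length offset (0.116), with limma on log2(TPM + 1) (0.150) and on log2(TPM + 0.1) (0.153), adjusted p 0.0868 to 0.147, and the cause was not tested. Psat1 was called without a low-count filter (-0.076, edgeR adjusted p = 0.0112) and without LM2 replicate 1 (-0.080, 0.00514), and Phgdh without LM2 replicate 3 (0.072, 0.0248). Leaving out 1 library gave 0 to 1 members called higher, 5 to 6 called lower and 7778 to 8258 genes called in all, against 8272. Counted over tested genes of at least 5 CPM, the median of chromosome 10 was -0.37 and that of chromosome 12 -0.20.

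The libraries share replicate numbers across lines but nothing in the labels ties them. Deviations of same-numbered libraries correlated at -0.18, -0.15 and -0.08, and no library correlated best with its own number. With the replicate block 8250 genes were called, 5 members lower and 0 higher. Each member rested on 6490 counts or more over the 3 libraries of a line.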

Other observations

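Folate uptake genes outside the rule for named genes, picked after their values were seen, were low in both lines. The folate receptor gene Folr1 had 1 estimated count over the 3 Parental libraries and 253 over the 3 LM2 libraries, at 2.78, 1.75 and 2.57 CPM in LM2. Folr1 was called higher (log2 fold change 7.69 ± 0.54 SE, edgeR adjusted p = 3.46e-11), a fold change that rests on that 1 Parental count. The proton-coupled folate transporter Slc46a1 was at 2.75, 3.39 and 3.69 CPM in Parental and at 1.59, 2.02 and 1.36 CPM in LM2, without overlap (log2 fold change -0.98 ± 0.19 SE, edgeR adjusted p = 8.85e-05). Thymidylate synthase Tyms, a user of folate carbon that was also picked afterwards, went from 48.8 ± 2.64 to 42.9 ± 0.729 CPM (SD, n = 3, edgeR adjusted p = 0.000663).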
